A study of Homo sapiens with 6 samples.

Results

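The HOX genes are 39 protein-coding genes, of 19974 on chromosomes 1 to 22 and X, that lie in 4 clusters. They were chosen by symbol alone, as HOXA, HOXB, HOXC or HOXD followed by a paralog number from 1 to 13, and no measured value entered the choice. HOXA holds 11 of them on chromosome 7, HOXB 10 on chromosome 17, HOXC 9 on chromosome 12 and HOXD 9 on chromosome 2. CUT&Tag, in which an antibody brings a DNA-cutting transposase to a chromatin protein, was run on MDA-MB-231, an established triple-negative breast cancer cell line. An antibody against NONO, a nuclear DNA- and RNA-binding protein, was used on NC cells (the control, whose genotype is labelled WT) and on NONO-KD cells. Antibodies against H3T11ph (phosphorylated threonine 11 of histone H3) and H3K27ac (acetylated lysine 27 of histone H3, a mark of active promoters and enhancers) were each used on NC and PKM2-KD cells. PKM2 is a pyruvate kinase isoform that also enters the nucleus. Each of the 6 groups was a single library, so there was no replicate and no test between conditions, and every interval below covers counting error only. No untargeted antibody library was analysed here. The lists do not measure the amount of NONO or PKM2 protein, so they give no check of how far either was depleted. The study reports western blots of the knockdown of both in this line.

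HOX proteins are homeodomain transcription factors that tell cells where they lie along the body axis. Genes with low paralog numbers act towards the head and genes with high numbers towards the tail and the ends of the limbs, and their order on the chromosome follows that order. In adult cells Polycomb proteins hold many of them silent, while expressed members carry histone acetylation, and which members a cell keeps on is part of its memory of origin.

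Each deposited list gives the regions called in 1 library, with a fold, which is the height of piled-up fragments at the summit over the local background. Whether a control library entered that background is not given. A region was counted for a HOX gene when it overlapped by at least 1 bp the RefSeq span of the gene widened by 2 kb on either side. Spans overlap in places, since the annotated HOXA3 gene runs across HOXA4, HOXA5 and HOXA6, HOXB3 runs across HOXB4, and HOXC4 runs across HOXC5 and HOXC6. HOX spans are also short, with a median of 3.79 kb against 24.2 kb over all protein-coding genes, so a count of genes with a region favours other genes, and densities per 10 kb stand beside those counts. The lists held 89474 NONO regions in NC and 44349 in NONO-KD, 42674 H3T11ph regions in NC and 36583 in PKM2-KD, and 572970 H3K27ac regions in NC and 212856 in PKM2-KD. A single width, the smallest in the list, was that of 94.6% of the NONO NC and 79.3% of the H3K27ac NC regions, but of 1.19% to 2.05% in the other 4 lists. For NONO and H3K27ac the form of the list thus differed between control and knockdown, and an effect of the knockdown there cannot be told apart from it. The H3T11ph pair was alike in form.

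The promoter sequences on which regions lay are given first. RefSeq (GRCh38.p14) listed a start for 20 of the 39 genes, mostly of HOXA and HOXD. HOXB1 was the only HOXB gene among the 20, and HOXC4 and HOXC5, listed with the same start, were the only HOXC genes. The 250 bases before the start are shown for 4 of the 20, with the bases under a region in capitals. HOXD8 and HOXD1 are shown because H3K27ac regions of both libraries reached their promoters, HOXA10 because its promoter held the strongest H3K27ac region of the HOXA genes in NC, and HOXA4 because a NONO region lay on it.
HOXD8, plus strand, chr2:176129455-176129704: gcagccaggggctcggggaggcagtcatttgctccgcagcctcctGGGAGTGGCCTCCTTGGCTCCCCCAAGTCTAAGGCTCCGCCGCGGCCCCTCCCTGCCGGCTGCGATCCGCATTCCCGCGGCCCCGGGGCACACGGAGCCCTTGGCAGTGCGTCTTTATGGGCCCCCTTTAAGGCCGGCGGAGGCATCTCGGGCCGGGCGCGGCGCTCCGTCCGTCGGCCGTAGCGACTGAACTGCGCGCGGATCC
HOXD1, plus strand, chr2:176188418-176188667: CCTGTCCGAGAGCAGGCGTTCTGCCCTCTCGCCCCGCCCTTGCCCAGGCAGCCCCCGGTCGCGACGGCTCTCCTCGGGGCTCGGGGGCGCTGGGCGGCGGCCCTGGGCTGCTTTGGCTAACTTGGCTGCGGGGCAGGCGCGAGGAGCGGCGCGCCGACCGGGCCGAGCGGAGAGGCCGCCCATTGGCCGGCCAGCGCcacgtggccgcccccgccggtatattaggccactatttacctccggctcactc
HOXA10, minus strand, chr7:27179862-27180111: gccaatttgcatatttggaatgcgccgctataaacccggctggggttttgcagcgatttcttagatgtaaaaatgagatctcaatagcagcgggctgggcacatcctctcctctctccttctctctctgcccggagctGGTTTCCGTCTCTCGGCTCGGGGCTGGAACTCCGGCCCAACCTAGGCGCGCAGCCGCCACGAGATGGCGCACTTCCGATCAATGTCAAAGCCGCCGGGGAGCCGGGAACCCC
HOXA4, minus strand, chr7:27130758-27131007: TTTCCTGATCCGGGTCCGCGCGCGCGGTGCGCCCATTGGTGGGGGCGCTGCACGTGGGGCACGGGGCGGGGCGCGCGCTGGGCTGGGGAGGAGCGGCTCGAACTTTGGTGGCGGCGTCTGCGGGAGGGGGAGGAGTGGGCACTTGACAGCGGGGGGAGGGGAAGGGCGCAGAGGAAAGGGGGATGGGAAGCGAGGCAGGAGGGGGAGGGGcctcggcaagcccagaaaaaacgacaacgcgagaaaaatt
At HOXD8, 205 of the 250 bases lay under a region, with a fold of 6.83 in NC and 3.12 in PKM2-KD. At HOXD1, 197 bases did, with folds of 5.78 and 4.34. At HOXA10 a region of NC covered 112 bases with a fold of 9.05, and no region of PKM2-KD reached them. At HOXA4, 210 bases lay under the NONO region of NC, whose fold was 6.32. Over the 20 promoters, read from 250 bases before to 50 after the start, the median content of G and C was 58%, against 62.7% for 15812 genes, and the median number of CpG was 22.5 against 22. The AP-1 motif TGACTCA, searched on both strands, was in 0 of the 20 and in 3.62% of all promoters. The PBX-HOX motif TGATTNAT was in 2 of the 20, HOXA2 and HOXD11, and in 2.03% of all.

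**Figure D1:**
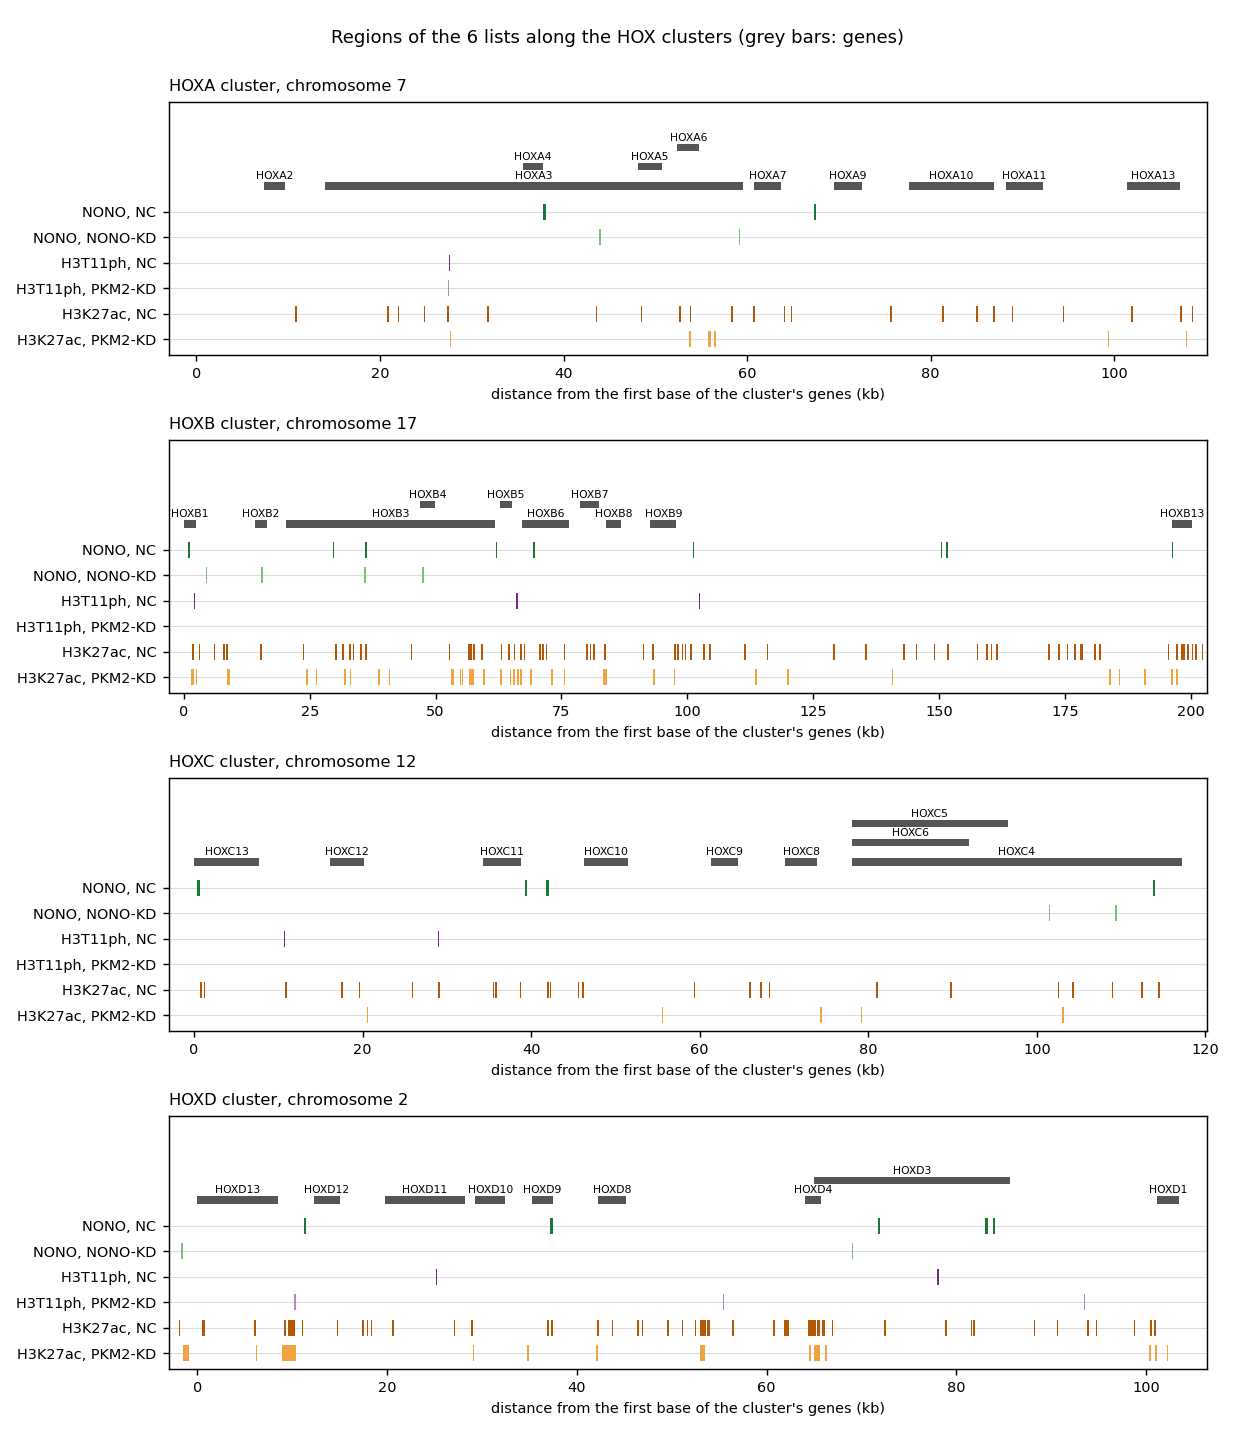
Regions of the 6 lists along the 4 clusters. The x axis is the distance in kb from the first base of the cluster's genes, each coloured mark is a region (drawn at a minimum width so that narrow ones can be seen), and grey bars are HOX genes, of which 1 is not drawn. H3K27ac marks were dense along HOXB and HOXD and sparse along HOXA and HOXC in PKM2-KD, while NONO and H3T11ph marks were few and seldom lay above one another.

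H3K27ac was the mark that most HOX genes carried, and it was unevenly shared among the clusters. In NC, 36 of 39 HOX genes had a region, 92.3%, against 94.9% of all protein-coding genes. In PKM2-KD 25 did, 64.1%, against 86.2%. Per length the order turned, with 113 distinct regions in the HOX spans of NC, or 2.99 per 10 kb (95% exact Poisson interval 2.47 to 3.60), against 2.24 over the spans of all protein-coding genes. PKM2-KD had 50, or 1.32 per 10 kb (0.982 to 1.75), against 0.921. Both intervals lay above the density of all genes, but neighbouring regions are not independent counts. HOX spans are also shorter, so the 2 kb added on either side makes up more of them, and the densities are not matched for that. Within 2 kb of a listed start, 14 of 20 HOX genes had a region in NC, 70% (95% Wilson interval 48.1 to 85.5), where 78.4% of 15812 genes did. In PKM2-KD 11 did, 55% (34.2 to 74.2), where 66.3% did. Near these 20 starts, then, no excess of H3K27ac was seen. HOXB, the densest cluster, had only the start of HOXB1 among them, so its promoters were hardly covered by this count.

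HOXB and HOXD stood above HOXA and HOXC in both libraries. In NC the 10 HOXB genes had 43 regions, or 4.29 per 10 kb (3.10 to 5.77), and the 9 HOXD genes had 29, or 3.65 per 10 kb (2.44 to 5.24). HOXA had 22, or 2.15 per 10 kb (1.35 to 3.25), and HOXC had 19, or 1.99 per 10 kb (1.2 to 3.11). In PKM2-KD the densities were 2.79 per 10 kb in HOXB (1.85 to 4.03) and 1.51 in HOXD (0.781 to 2.64). HOXA had 0.586 (0.215 to 1.27) and HOXC 0.419 (0.114 to 1.07). The interval of HOXB lay above those of HOXA and HOXC in PKM2-KD, whereas in NC it met those of HOXA and HOXC at its lower end, and the intervals of HOXD overlapped those of the other 3 clusters in both libraries.

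Coverage gave the same split. Regions covered 6.84% of the HOXB spans and 7.68% of the HOXD spans in NC, and 6.64% and 5.24% in PKM2-KD. They covered 2.55% of the HOXA spans and 2.33% of the HOXC spans in NC, and 0.749% and 0.657% in PKM2-KD. Over all protein-coding genes the shares were 3.76% and 2.96%, so HOXB and HOXD lay above and HOXA and HOXC below in each library.

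The DNA around each cluster, 100 kb on either side, differed between HOXD and HOXB. The HOXD flanks had 1.85 regions per 10 kb in NC and 0.40 in PKM2-KD, below the 3.65 and 1.51 of the genes themselves, though the intervals overlapped. HOXB lay in a stretch that was itself dense, with 3.10 per 10 kb in its flanks in NC and 1.45 in PKM2-KD, and its flanks were covered to 6.52% and 5.27%. The flanks of HOXA (2.40 and 0.65) and HOXC (1.90 and 0.25) were close to the genes they enclose.

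**Figure D2:**
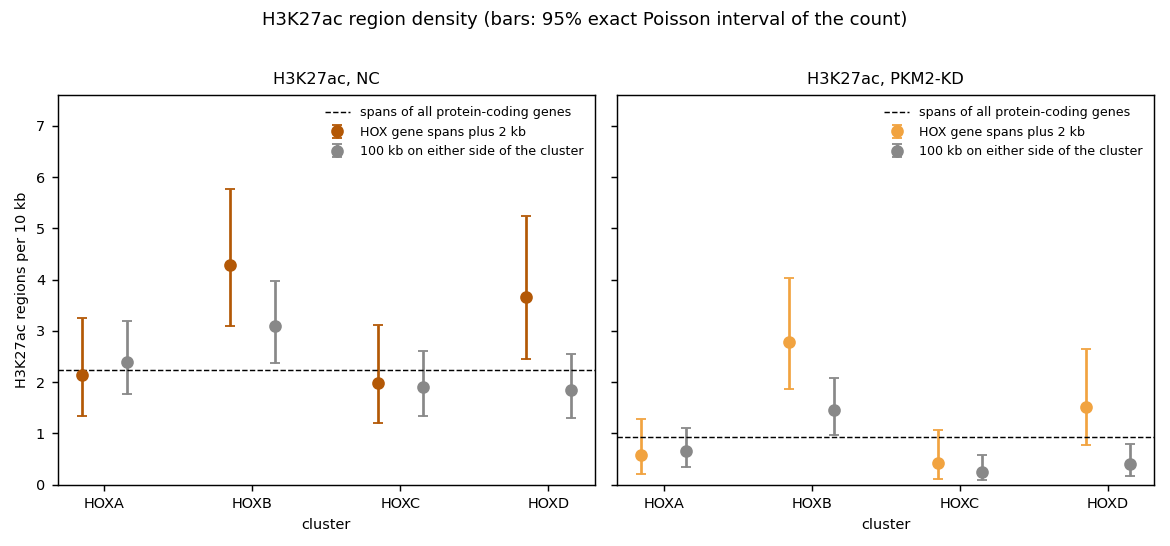
H3K27ac regions per 10 kb in the HOX gene spans (coloured) and in the 100 kb on either side of each cluster (grey), for NC on the left and PKM2-KD on the right. Bars are 95% exact Poisson intervals of the count, and the dashed line is the density over all protein-coding genes (2.24 in NC and 0.921 in PKM2-KD). HOXB and HOXD points lie above the line in both panels.

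Within 2 kb of a HOX gene, the strongest H3K27ac signal lay beside HOXD13, which patterns the digits and the distal limb. In NC it was a region of 783 bp at chr2:176097043-176097825 with a fold of 14.6 and 54 fragments at the summit. In PKM2-KD it was a region of 1435 bp at chr2:176096425-176097859 with a fold of 19.5 and 35 fragments. Both lie between HOXD13 and HOXD12, beyond the end of HOXD13, and together with other regions they covered 13.6% of the widened HOXD13 span in NC and 16.8% in PKM2-KD. HOXD12, its limb-patterning neighbour, shared the region, and its covered share was 3.81% and 0.971%.

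HOXD4 and HOXD3, which act in the hindbrain and neck vertebrae, held the next strongest within that distance. A region at chr2:176152839-176153119 in NC, inside both genes, had a fold of 11.9 with 31 fragments, and one at chr2:176152531-176153103 in PKM2-KD had 17.9 with 32. HOXD4 was the most covered HOX gene in NC, at 32.6% of its widened span, and was covered to 16.1% in PKM2-KD, below HOXB5 and HOXD13. HOXD3 was covered to 8.07% and 3.72%. An NC region with a fold of 11.9 at chr2:176149372-176149863 lay 1687 bp before HOXD4 and had no counterpart in PKM2-KD.

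Among HOXA genes in NC, the highest fold was the 9.05 of the HOXA10 promoter, within 2 kb of HOXA11 as well, both genes of the uterus and limb. HOXB3, a hindbrain gene, came next in NC with a fold of 7.95 at chr17:48585394-48585534, in 14 regions that covered 5.46% of its span. In PKM2-KD HOXB3 reached 10.8 in 13 regions that covered 7.44%. HOXB6 had a fold of 10.2 in PKM2-KD, at chr17:48601393-48601762 inside the gene, and 10.3% of its span was covered, against 7.16% in NC. HOXC8, a gene of the trunk, had 1 region in each library, in different places. In PKM2-KD it was 140 bp at chr12:54013117-54013256 with a fold of 8.67. In NC it was 112 bp at chr12:54007038-54007149 with a fold of 2.87 and 6 fragments.

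Single genes differed between the libraries in both directions. The covered share was higher in PKM2-KD at 9 HOX genes and lower at 27. Among the 9, HOXB5 was covered to 7.10% in NC and 19.4% in PKM2-KD, HOXB1 to 5.70% and 11.6%, HOXD1 to 5.13% and 8.83%, and HOXA6 to 3.51% and 7.35%. On the other side were HOXB13, a gene of the prostate and hindgut, at 13.8% and 3.58%, and HOXB9 at 14.0% and 3.18%. Neither set of values has a replicate to set it against.

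**Figure D3:**
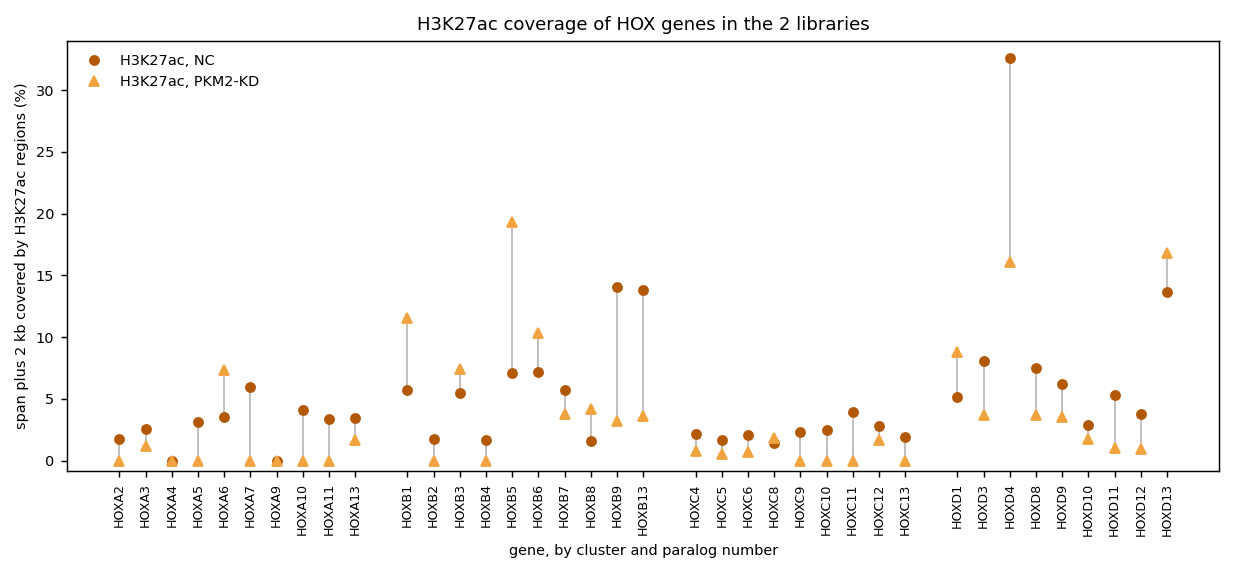
Share of widened HOX gene spans covered by H3K27ac regions, in percent, for NC (circles) and PKM2-KD (triangles), with genes ordered by cluster and paralog number. HOXD4 is highest in NC at 32.6%, HOXB5 highest in PKM2-KD at 19.4%, and the HOXC genes stay below 4% in both libraries.

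H3K27ac was called in NC only at 11 HOX genes, where 10.5% of all genes were, in PKM2-KD only at 0, against 1.74%, and in both at 25, against 84.5%. The 11 were HOXA2, HOXA5, HOXA7, HOXA10, HOXA11, HOXB2, HOXB4, HOXC9, HOXC10, HOXC11 and HOXC13, with no HOXD gene among them. All 9 HOXD genes had a region in both libraries. HOXA4 and HOXA9, a gene of blood progenitors, had no H3K27ac region in either. The number of genes with a region differed with the length of the list. When the longer NC list was cut to the length of the PKM2-KD list by q, 23 HOX genes had a region in NC, 2 fewer than in PKM2-KD, and 41 regions lay in the HOX spans. The share of all genes after that cut is not given here, so the change cannot be called particular to HOX genes.

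By paralog number, the anterior genes (1 to 3) had 2.57 regions per 10 kb in NC and 1.65 in PKM2-KD, the central genes (4 to 8) 3.02 and 1.63, and the posterior genes (9 to 13) 3.41 and 0.870. Their intervals overlapped in each library, so no order among the 3 classes was resolved. Of the 16 posterior genes, 15 had a region in NC and 9 in PKM2-KD, and HOXB9, HOXB13 and HOXD13 were the most covered of them in NC. The 4 genes numbered 13 together had 18 regions in NC and 7 in PKM2-KD and were covered to 8.03% and 6.09%. Paralogs 10 and 11 had 8 and 10 regions in NC and 1 each in PKM2-KD, and that 1 was the one between HOXD11 and HOXD10. Paralog group 2, HOXA2 and HOXB2, had 2 regions in NC and 0 in PKM2-KD.

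Positions were shared more rarely than genes. Of the 113 NC regions in HOX spans, 20 were overlapped by a PKM2-KD region, 17.7% (95% Wilson interval 11.8 to 25.8), and over all gene spans the share was 16.1%. Taken from the other list, 18 of 50 PKM2-KD regions met an NC region, 36%, against 35.9%. Both shares were close to those over all genes. The shared regions fell in HOXB, with 10 of 43 (13.2% to 37.7%), and HOXD, with 9 of 29 (17.3% to 49.2%). HOXA had 1 of 22 (0.807% to 21.8%) and HOXC 0 of 19 (up to 16.8%). The intervals of HOXA, HOXB and HOXC include the 16.1% over all gene spans, and that of HOXD lies just above it.

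Joined across both libraries, and with the DNA between genes included, the shared regions formed 19 stretches, 10 in HOXB, 8 in HOXD and 1 in HOXA. The stretch between HOXD13 and HOXD12 had the highest fold in both libraries (14.6 in NC and 19.5 in PKM2-KD), and that at HOXD3 and HOXD4 had 11.9 and 17.9. A pair lay away from any gene. A stretch of 666 bp between HOXB1 and HOXB2, at chr17:48536940-48537605 and 5050 bp from HOXB2, had a fold of 14.1 in both NC and PKM2-KD. A stretch of 618 bp at chr2:176140435-176141052, 7740 bp from HOXD8, had 13.3 and 9.98. In the remaining stretches the fold was between 2.59 and 8.68 in NC and between 3.12 and 9.22 in PKM2-KD. Since the NC pileup of H3K27ac was scaled by a factor of 0.521, as recovered from the list, folds are comparable within a list and only loosely between lists.

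**Figure D4:**
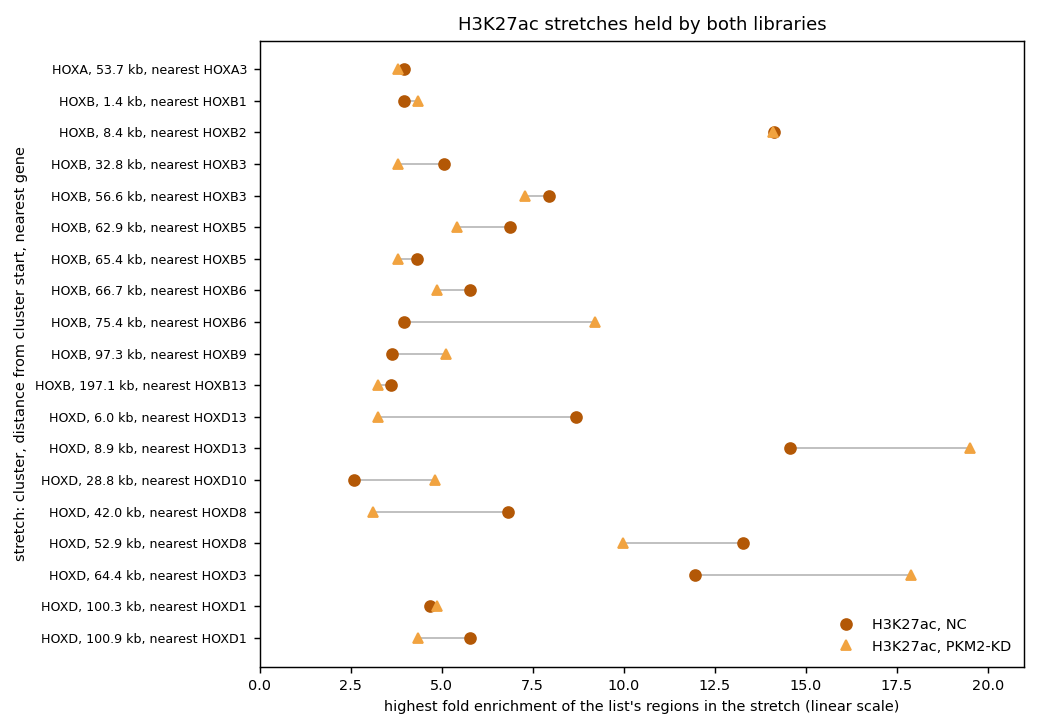
The 19 stretches of the clusters that H3K27ac regions of both libraries shared, each with its highest fold in NC (circle) and PKM2-KD (triangle) on a linear axis. Stretches are named by cluster, distance in kb from the cluster's start and nearest gene. The HOXD13, HOXD3, HOXB2 and HOXD8 neighbourhoods stand apart at folds of 9.98 or more in both libraries.

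NONO regions were few and tall. In NC 14 HOX genes had one, 35.9%, against 71% of all genes, and in NONO-KD 9 did, 23.1%, against 46.2%. Per length there were 16 regions, 0.424 per 10 kb (0.242 to 0.688), in NC against 0.362 over all genes, and 10 regions, 0.265 per 10 kb (0.127 to 0.487), in NONO-KD against 0.155. Both intervals include the density of all genes, so a difference from other genes was not resolved at these counts. Within 2 kb of the 20 listed starts, NONO lay at 4 in NC (28% of all genes) and at 3 in NONO-KD (10.1%).

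The tallest NONO region of the clusters in NC lay 815 bp before HOXD12, with a fold of 86.3 and 163 fragments at the summit. HOXD3 had 3 regions, the strongest with a fold of 82.7 and 156 fragments at chr2:176159193-176159461 inside the gene. HOXB6 followed with 77.4, HOXB1, a hindbrain gene, with 64.8, and HOXC4 with 47.4. HOXB3 and HOXB13 each reached 46.9 with 88 fragments. The other genes with a NONO region in NC were HOXC11 (43.2), HOXB5 (36.3), HOXA9 (13.2), HOXD9 (8.79), HOXC13 (7.90), and HOXA3 with HOXA4, which shared 1 region with a fold of 6.32. All 16 regions were exactly 269 bp wide, the narrowest width of that list.

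In NONO-KD the regions lay elsewhere. HOXB1 had the highest fold, 67.3 with 85 fragments at chr17:48532895-48533029, followed by HOXC4 with 54.8, HOXA3 and HOXB2 with 39.1 each, and HOXB3 with 31.3. HOXB4, a gene known from blood stem cells, had 27.4, HOXD13 21.4, HOXD3 18.0 and HOXA7 10.8. Widths ran from 98 to 280 bp. The median fold of the HOX regions was 42.1 in NC, against 25.3 for regions at all genes, and 31.0 in NONO-KD, against 35.0, with 16 and 10 regions behind them.

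NONO was called in NC only at 9 HOX genes (31.7% of all genes), HOXA4, HOXA9, HOXB5, HOXB6, HOXB13, HOXC11, HOXC13, HOXD9 and HOXD12. It was called in NONO-KD only at 4 (6.97%), HOXA7, HOXB2, HOXB4 and HOXD13, and in both at 5 (39.3%), HOXA3, HOXB1, HOXB3, HOXC4 and HOXD3. HOXA3, HOXB3, HOXC4 and HOXD3 have the longest annotated spans of the HOX genes, 20.6 to 45.6 kb, which favours a call in both. Yet at those 5 genes no region was in the same place, and 0 of the 16 NC regions met a NONO-KD region (95% Wilson interval up to 19.4%), where 1.95% did over all genes. The nearest approach was in HOXB3, where the NC region at chr17:48564526-48564794 began just after the NONO-KD region at chr17:48564303-48564427 ended. At NONO lists of equal length 9 HOX genes had a region in each library, and the share of all genes at that length is not given here.

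H3T11ph was the rarest of the 3 at HOX genes. In NC 6 genes had a region, 15.4%, against 51.1% of all genes, and in PKM2-KD 3 did, 7.69%, against 48.1%. There were 5 regions in NC, 0.132 per 10 kb (0.0430 to 0.309) against 0.157 over all genes, and 2 in PKM2-KD, 0.0529 per 10 kb (0.00641 to 0.191) against 0.142. Both intervals include the density of all genes. Of the 20 listed starts 1 had a region within 2 kb in each library, where 18.5% and 18.6% of all genes did. No HOXC gene had one in either library.

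In NC the strongest was at HOXB1, with a fold of 44.5 and 60 fragments at chr17:48530492-48530616 inside the gene. A region between HOXB5 and HOXB6, at chr17:48594585-48594710, had 19.7 with 26 fragments and lay within 2 kb of both. HOXD3 had 16.0 with 21 fragments, HOXD11, a gene of the forearm, 12.4 with 16, and HOXA3 3.64 with 4 fragments, the weakest of the 5. In PKM2-KD the region between HOXD13 and HOXD12, at chr2:176097714-176097807, had 49.3 with 70 fragments, and HOXA3 had 17.5 with 22.

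H3T11ph was called in NC only at 5 genes (18.4% of all), HOXB1, HOXB5, HOXB6, HOXD3 and HOXD11, in PKM2-KD only at 2 (15.4%), HOXD12 and HOXD13, and in both at 1 (32.7%), HOXA3. The HOXA3 regions were at chr7:27120506-27120648 in NC and chr7:27120408-27120507 in PKM2-KD and touched over their last and first bases only. They made up the 1 of 5 NC regions that was found again (3.62% to 62.4%), where 6.21% were over all genes. With so few regions a difference between NC and PKM2-KD was not resolved, since the intervals of their densities overlapped.

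**Figure D5:**
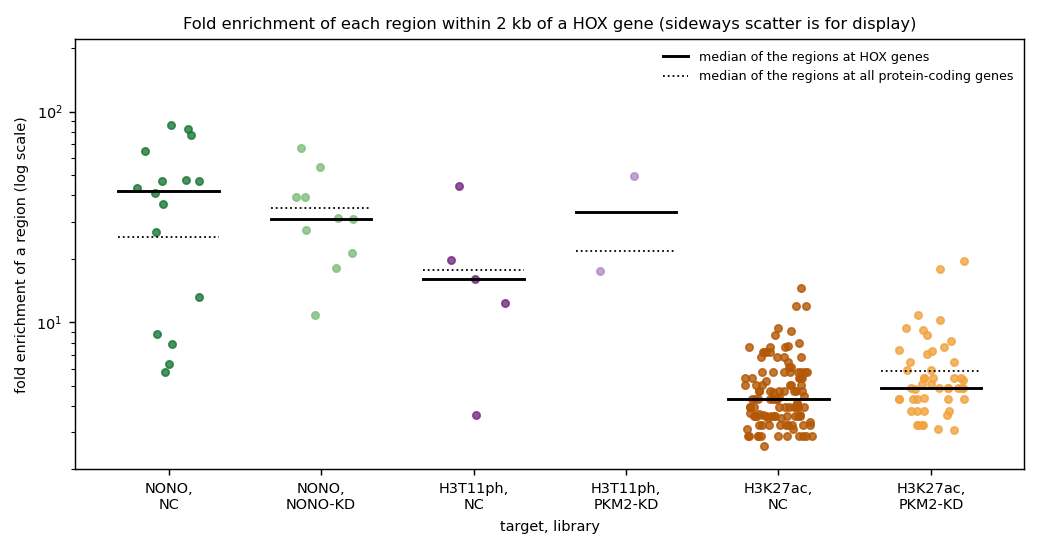
Fold of each region within 2 kb of a HOX gene, on a log axis, by list. Solid lines are the medians of these regions (42.1 and 31.0 for NONO, 16.0 and 33.4 for H3T11ph, 4.33 and 4.88 for H3K27ac) and dotted lines the medians over regions at all protein-coding genes. NONO and H3T11ph had few and tall regions, H3K27ac many and low ones.

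Whether NONO, H3T11ph and H3K27ac lie at the same places was a question of the study, and in the HOX spans of NC their regions seldom overlapped. Regions of all 3 were called within 2 kb of 5 genes, HOXA3, HOXB1, HOXB5, HOXB6 and HOXD3. The share of all genes with all 3 is not given here, so the count cannot be read as an excess. Taken singly, NONO was called at 71% of all genes in NC, H3T11ph at 51.1% and H3K27ac at 94.9%. By position, 0 of 16 NONO regions met an H3T11ph region, against 3.08% over all genes, and 0 of 5 H3T11ph regions met an H3K27ac region, against 22.8%. H3K27ac met 2 of the 16 NONO regions, 12.5% (3.50 to 36.0), against 19.5%, inside HOXB3 and at the end of HOXD9. Each interval includes the share over all genes, so a difference of HOX genes from other genes was not resolved. At HOXB1, where NONO and H3T11ph were both tall in NC, they lay at chr17:48529411-48529679 and chr17:48530492-48530616. In PKM2-KD the H3T11ph region between HOXD13 and HOXD12 lay inside the strongest H3K27ac stretch described above. HOXA3 was the only HOX gene with a region in every list. Its annotated span of 45.6 kb is the longest of the HOX genes, which favours such a count. Its NONO region in NC was the one on the HOXA4 promoter.

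The clusters also carry microRNA genes, which lie between or inside the annotated HOX genes and repress messages of some of them. Mature sequences that RefSeq lists (GRCh38.p14) are shown with the seed, bases 2 to 8, in capitals, because the 2 families recur across clusters and their loci differed in H3K27ac. The first 2 belong to genes of HOXB and HOXD, and the last 2 share the seed AGGUAGU. For MIR10B only the 3p arm was listed, so the first 2 are opposite arms and their seeds are not to be compared.
hsa-miR-10a-5p: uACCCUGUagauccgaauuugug
hsa-miR-10b-3p: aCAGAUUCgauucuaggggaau
hsa-miR-196a-5p: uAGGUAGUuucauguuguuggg
hsa-miR-196b-5p: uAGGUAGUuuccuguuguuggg
Of 6 microRNA genes, 4 had an H3K27ac region within 2 kb in NC and 2 in PKM2-KD, where 94.9% and 86.2% of the much longer protein-coding genes did. MIR10B, beside HOXD4 and known for promoting invasion of breast cancer cells, had the strongest, with a fold of 11.9 at 439 bp from the hairpin in NC and 8.13 at 1553 bp in PKM2-KD. MIR10A, beside HOXB4, had a fold of 3.67 in NC and 5.33 in PKM2-KD. Of the genes that make the same miR-196a-5p, MIR196A1 in HOXB had 2 regions in NC, with a highest fold of 5.78, and 0 in PKM2-KD, and MIR196A2 in HOXC had none in either. MIR196B in HOXA had 1 region in NC, with a fold of 3.60, and none in PKM2-KD. MIR615 in HOXC had none.

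Of 16 noncoding RNA genes of the clusters, 15 had an H3K27ac region within 2 kb in NC, where 94.9% of protein-coding genes did, and 8 in PKM2-KD, where 86.2% did. HOXB-AS3 had 9 and 8 regions and was covered to 5.86% and 9.70%. HOTAIR of the HOXC cluster, studied for its contact with Polycomb proteins, had 4 regions in NC and 0 in PKM2-KD. HOTTIP, beside HOXA13, had 4 and 1, and HOTAIRM1, also of the HOXA cluster, had none in either.

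Among genes that work with the HOX proteins, counts of genes with a region are to be read beside the 94.9% of all genes in NC and 86.2% in PKM2-KD, and covered shares beside 3.76% and 2.96%. All 9 genes of the PBX, MEIS and PKNOX partners, which bind DNA with HOX proteins, had an H3K27ac region in both libraries, and together were covered to 3.55% in NC and 1.98% in PKM2-KD. All 15 Polycomb and trithorax genes had a region in both, covered to 3.68% and 2.58%, and the highest fold among them was at EZH1, 25.7 in NC and 23.3 in PKM2-KD. The EVX genes at the ends of HOXA and HOXD were covered to 4.90% and 2.24%. Of the 6 ParaHox genes, the sister cluster of HOX, 5 and 4 had a region, covered to 2.72% and 1.29%. The labelled cell type was checked with mesenchymal line genes such as VIM and EGFR, 8 of 8 with a region and covered to 14.3% in NC and 14.9% in PKM2-KD. These genes were uneven in NC, with VIM covered to 40.9% and EGFR to 23.5%, but CAV1 to 7.10% and ZEB1 to 4.27%. Luminal and epithelial genes were covered to 3.70% and 2.57%, with 8 of 8 in each, so none of these markers was bare, and the HOXB and HOXD spans lay between both lists.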

How the data were processed

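CUT&Tag libraries of MDA-MB-231 cells were assigned to 6 groups by their titles, 1 library each. The authors deposited 1 narrowPeak list per library, in which the score, the fold (a ratio of pileup to local background at the summit) and the −log10 p and −log10 q values come from the peak caller. The submitters' processing notes name hg38, FastQC 0.11.9, cutadapt 1.18, SAMtools 1.3.1 and MACS2 2.1.1.20160309. The aligner, duplicate handling, control and MACS2 settings are not given in the sources used here. Lists were called per library, and the smallest −log10 q was near 1.3 in each deposited list. Library totals are not given, so depth is known only through the summit heights.

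Regions on chromosomes 1 to 22 and X were intersected with RefSeq gene spans (GRCh38.p14) widened by 2 kb, with an overlap of at least 1 bp, in Python 3.11.15 with numpy 2.4.6, pandas 2.3.3 and scipy 1.17.1. Summit heights in fragments were recovered from fold and −log10 p as whole numbers, within 0.002 of the deposited value, in 100% of 400 rows tried per list, after scaling by 0.521 in H3K27ac NC. The code was tested on simulated data. Counts carry 95% exact Poisson and shares 95% Wilson intervals. All HOX genes were counted. Values are given for the 5 with the highest fold per list, and those called in 1 library only for NONO and H3T11ph, and for other gene lists by their highest folds. HOXC8, HOXB6, HOXB13 and other genes with a large difference in coverage were chosen after their values were seen. The members and lists were chosen with earlier results of these data known. Alternatives were q, width, window, summit, overlap and list length. Values of 1 HOX gene and 1 partner gene are not reported here by name.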

Additional observations from a re-analysis of the deposited data

Results flagged for a closer look

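H3K27ac regions also lay inside the clusters but more than 2 kb from every HOX gene, in DNA that the counts per gene do not use, which is why they are listed here. There were 46 such regions in NC and 9 in PKM2-KD. In NC 26 were in HOXB, which includes the long stretch from HOXB9 to HOXB13, 13 in HOXD, 6 in HOXC and 1 in HOXA. In PKM2-KD 7 were in HOXB, 1 in HOXC and 1 in HOXD. HOX spans took up 100 of 204 kb in HOXB and 79.4 of 107 kb in HOXD. They took up 95.5 of 121 kb in HOXC and 102 of 111 kb in HOXA. The counts are thus not densities, and HOXB had the most such DNA. Whole clusters in NC, HOX spans included, held 3.38 regions per 10 kb in HOXB, 3.91 in HOXD, 2.06 in HOXC and 2.07 in HOXA. Spans of all protein-coding genes held 2.24. In HOXB and in HOXD, 1 region of NC was met by 1 of PKM2-KD, with folds of 14.1 and 14.1 in HOXB and of 13.3 and 9.98 in HOXD, among the highest of either cluster. No control library was analysed here against which to set them.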

How the results depend on the processing

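No paired analysis was possible because a single library stood for every group. Values moved most when only regions at least 2 times the narrowest width were kept. Genes with a region were then 0 in NONO NC, 1 in NONO-KD, 0 and 0 for H3T11ph, and 13 and 12 for H3K27ac, with 0, 1, 0, 0, 19 and 14 regions, and knockdown minus NC was 1 gene for NONO (a reversal), 0 for H3T11ph and -1 for H3K27ac. With the longer list of each pair cut to the shorter by q, NONO NC had 9 genes and 10 regions and a difference of 0, and H3K27ac NC had 23 genes and 41 regions and a difference of 2 (a reversal). At a −log10 q of at least 5, H3K27ac NC had 20 genes and 30 regions, PKM2-KD 24 regions, and the difference was -3. At that q, at equal lengths and (for the first) at an overlap of at least 50%, the shares of H3T11ph NC regions found again and of NONO regions in H3K27ac were 0%. On gene spans alone NONO NC had 9 genes, H3T11ph PKM2-KD 1 gene and 1 region, and NONO differed by -3. With 5 kb, NONO-KD had 14 genes, H3T11ph NC 10, and H3T11ph differed by -7. Placing regions by summit moved none of 21 results. Shares over all genes are not given for these settings. Beyond the construction of each setting, the cause was not tested. With 1 library per group, unknown totals and NONO and H3K27ac lists of unlike form, no difference between NC and knockdown can be separated from the library or the list.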
